A study of Mus musculus with 20 samples.

Results

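Serine and threonine together have 10 of the 61 sense codons, 6 for serine and 4 for threonine. All 10 were taken by the genetic code alone and followed through 10 ribosome footprint libraries of mouse hippocampus. The occupancy tables listed 75837 distinct serine or threonine sites among 586153 codon sites, 45430 of serine and 30407 of threonine. A site is 1 codon of 1 mRNA with at least 1 footprint in at least 1 library.

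The study set mice without Qtrt1 (Qtrt1-/-) against wild types, with 3 females and 2 males of each genotype, and sequenced a footprint and an input RNA library from each hippocampus. Females were 6 months and 21 or 22 days old. In each genotype 1 male was 6 months and 18 days old and the other 5 months and 16 days. The labels name no strain, promoter or clone. QTRT1 is the catalytic part of tRNA-guanine transglycosylase, which exchanges a guanine in certain tRNAs for queuosine. Footprints are mRNA fragments left after nuclease digestion because a ribosome covered them, here from lysates made with cycloheximide, a drug that halts elongation.

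Queuosine occupies the first anticodon base of the tRNAs for tyrosine, asparagine, histidine and aspartate. The serine and threonine tRNAs do not carry it. The TCN serine codons (the serine box) and the ACN threonine codons are read in part by tRNAs with inosine at the first anticodon base, while AGC and AGT (the serine pair) have their own serine tRNA, whose anticodon starts with G.

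The sites whose occupancy differed most between genotypes are printed first, because the codon before the site recurs among them. They are the 8 serine or threonine sites of lowest p over both sexes, at most 1 per mRNA. Each line runs 5′ to 3′ over 10 codons on either side of the site, from the coding sequence of GENCODE vM21 on GRCm38. Capitals mark the codon before the site and then the site, and codons are counted from 0 at the start codon.
Cpe codon 285: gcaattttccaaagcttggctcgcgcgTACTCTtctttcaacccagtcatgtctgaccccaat
Enc1 codon 573: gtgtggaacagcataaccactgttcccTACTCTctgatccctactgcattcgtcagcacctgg
Lrp1 codon 3050: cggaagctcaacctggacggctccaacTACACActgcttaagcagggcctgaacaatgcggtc
Tmem59l codon 270: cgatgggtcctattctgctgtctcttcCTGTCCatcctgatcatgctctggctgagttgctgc
Stt3b codon 398: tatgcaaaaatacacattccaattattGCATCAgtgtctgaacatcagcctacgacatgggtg
Dpysl2 codon 404: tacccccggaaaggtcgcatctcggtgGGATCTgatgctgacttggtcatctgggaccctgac
Eef1a2 codon 328: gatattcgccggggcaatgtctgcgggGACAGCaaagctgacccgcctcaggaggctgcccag
Eif3g codon 249: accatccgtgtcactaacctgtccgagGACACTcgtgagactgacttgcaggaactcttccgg
The first 5 were higher in the knockout and the last 3 lower. TAC, a tyrosine codon, precedes 3 of the 5 higher sites, and GAC, an aspartate codon, precedes 2 of the 3 lower sites. This is not particular to serine and threonine. Over sites of all codons, tyrosine codons preceded 74 of the 362 called higher and aspartate codons 85 of the 242 called lower. They preceded 897 and 3040 of the 24839 sites tested.

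The libraries held 1071976 to 3032432 footprints at listed codons, 9.47% to 11.7% of them on serine and threonine codons. Qtrt1 had 66 to 88 input counts in wild types and 24 to 29 in knockouts. Marker genes of the hippocampal fields were detected, and their sums moved with genotype. The 3 CA3 markers summed to 250.1 to 267.6 input CPM in female wild types against 182.7 to 211.0 in female knockouts, and to 214 to 237 against 179.9 to 203 in males. The 3 dentate gyrus markers summed to 66.7 to 140.8 against 159.7 to 181.2 in females, and in males to at most 178 against at least 196. Every knockout thus lay below the wild types of its sex for CA3 and above them for dentate gyrus. How many other genes were apart in this way was not counted. The 3 CA1 markers gave 212 to 321 against 326 to 359.8 in females and overlapped in males. The choroid plexus markers (Ttr, Kl, Folr1, Kcnj13 and Clic6) summed to 62.9 to 1776 input CPM in female wild types, 825 to 3428 in female knockouts, 3266 to 3958 in male wild types and 2829 to 3948 in male knockouts. The same ranges for 5 striatal markers were 99.7 to 262, 41.3 to 174, 44.9 to 46.4 and 45.0 to 60.6. For 3 thalamic markers they were 65.7 to 93.8, 67.4 to 103.6, 89.4 to 151.2 and 70.3 to 77.1, apart between genotypes in males and overlapping in females. None of these markers was at 0 in all libraries. In bulk tissue, fewer cells of a type and less RNA per cell cannot be told apart.

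Enrichment is a codon's footprint density as a ratio to the average, given by position around the ribosome. Position 0 was matched to the codon listed in the occupancy tables and position 1 to the codon just before it on the mRNA: values recomputed that way correlated with the deposited ones over 61 codons at r = 0.956 to 0.977 and 0.983 to 0.994. The sources used here do not say which ribosomal site (A, P or E) each stands for. The genotype comparison was made at position 1.

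Synonymous codons differed widely at position 1, in an order that is not that of position 0. TCT was the highest serine codon at 1.32 ± 0.140 (mean ratio ± SD, n = 10 libraries). TCG followed at 0.775 ± 0.0756, AGT at 0.564 ± 0.0348 and TCC at 0.527 ± 0.0568. TCA at 0.470 ± 0.0466 and AGC at 0.377 ± 0.0311 were the lowest serine codons. Among threonine codons ACG stood at 1.34 ± 0.0676, ACT at 1.08 ± 0.0604, ACA at 0.711 ± 0.0346 and ACC at 0.610 ± 0.0303. TCT and ACG were above 1 in every library, and AGC was the lowest of the 10 by mean. In wild types ACG ranked 11 and TCT 18 among 61 codons, while AGC ranked 53.

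Of the 21 synonymous pairs 20 differed (95.2%) by an exact 2-sided sign-flip permutation test over 10 libraries (p = 0.00195, the smallest it can give, Benjamini-Hochberg adjusted p = 0.00205). The exception was TCC with AGT, where TCC was the higher in 2 of 10 libraries (exact permutation, adjusted p = 0.119). On the log2 scale TCT exceeded TCA by 1.48 ± 0.0750 and TCC by 1.32 ± 0.0553 (SD, n = 10), in 10 of 10 libraries each. The pairs share codons and libraries, so they are not independent of each other. Synonymous pairs of other amino acids were not tested, so the count does not set serine and threonine apart.

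**Figure D1:**
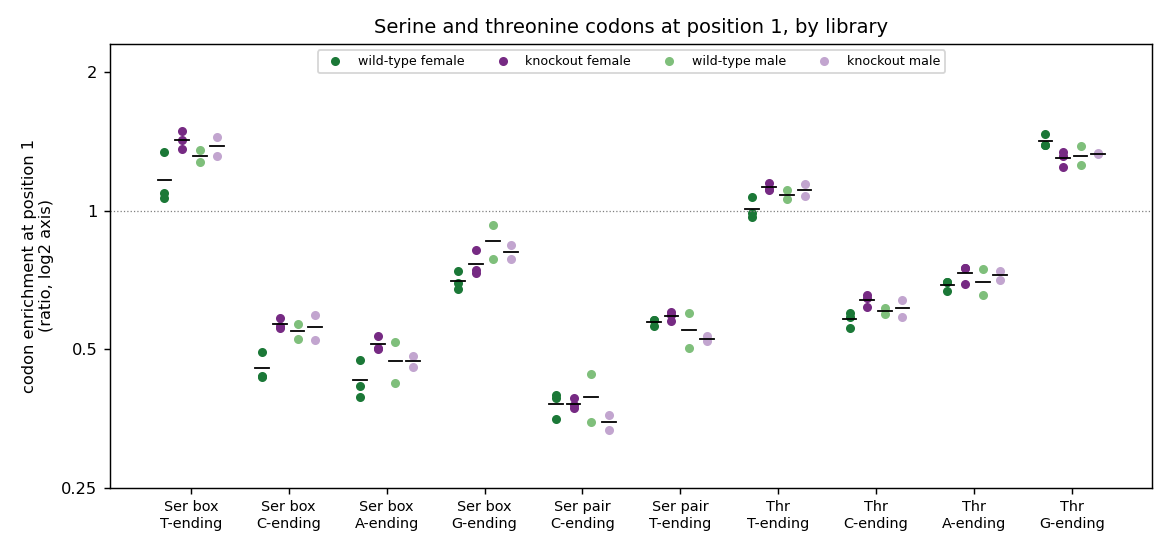
Codon enrichment at position 1 (ratio, log2 axis) for the 6 serine and 4 threonine codons, with 1 point per library and a bar at each group mean. The T-ending codon of the serine box and the G-ending threonine codon have all 10 points above 1, and each C-ending codon lies below its T-ending partner.

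Codons ending in C lay below their T-ending partners around the listed codon. TCC minus TCT was -1.32 ± 0.0553 at position 1 and -1.35 ± 0.0915 at position 2 (log2 ± SD, n = 10). ACC minus ACT was -0.82 ± 0.0465 and -1.41 ± 0.0553 at the same positions. Both were below 0 in 10 of 10 libraries at every position from -3 to 5. AGC minus AGT was -0.59 ± 0.0759 at position 1, but 0.15 ± 0.0816 at position -2, where it was above 0 in 10 of 10 libraries. At position 6 the sign was the opposite one for all 3 gaps, at 0.34 ± 0.0646, 0.12 ± 0.0769 and 0.48 ± 0.0735, in 10, 9 and 10 libraries. TCT was highest at position -1, at 2.06 ± 0.117, and ACT at position 2, at 1.90 ± 0.0507.

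**Figure D2:**
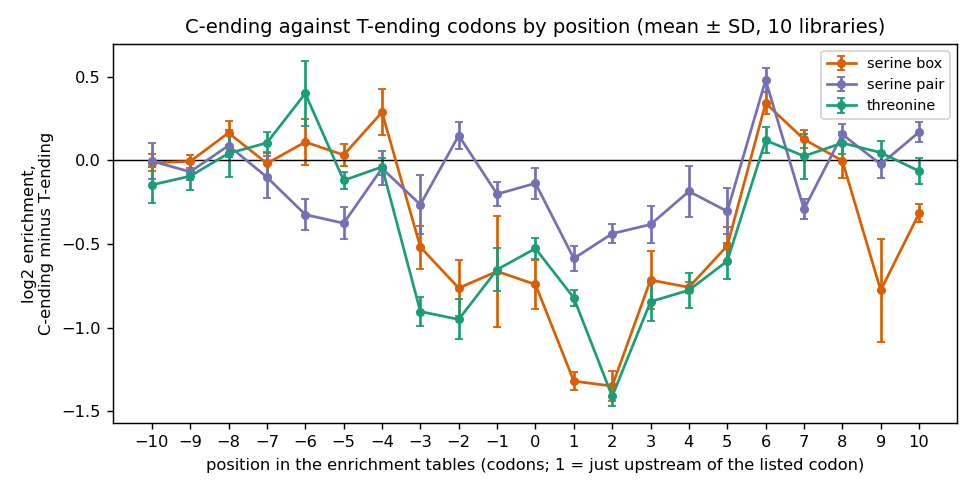
Difference in log2 enrichment, C-ending minus T-ending codon, for the serine box, the serine pair and threonine at positions -10 to 10 (mean ± SD over 10 libraries). The serine box and threonine stay below 0 from -3 to 5, lowest at position 2 (-1.35 and -1.41).

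Neighbouring codons went with different densities at position 1, as recomputed over 976 mRNAs. Threonine codons before a proline codon stood at 1.51 ± 0.110 against 0.824 ± 0.0190 before codons other than proline, serine or threonine (mean ratio ± SD, n = 10). Serine codons before proline stood at 0.827 ± 0.0443 against 0.699 ± 0.0425. Proline is known for slow peptide bond formation, whose part here was not tested. Both families were higher before it at position 1 in 10 of 10 libraries, where the proline codon is itself the listed codon. Codons of other amino acids before or after proline were not compared, so this does not set serine and threonine apart. After a proline codon both families were lower in 10 of 10 libraries. Threonine stood at 0.318 ± 0.0187 against 0.892 ± 0.0190 and serine at 0.381 ± 0.0202 against 0.697 ± 0.0452. All 4 contrasts passed an exact sign-flip permutation test (adjusted p = 0.00230 over 20). So did nearly all of the 20, which covered other neighbours and position 0 too. The exceptions were threonine before proline at position 0 and serine after serine or threonine at position 1 (sign-flip adjusted p = 0.101 and 0.688). At position 0 serine was lower before proline, at 0.685 ± 0.0570 against 0.785 ± 0.0324 (sign-flip adjusted p = 0.00434). None of the 20 passed for a change with genotype (lowest exact permutation adjusted p = 0.667). For threonine after serine or threonine, against after other codons, the log2 ratio at position 0 was 0.14 higher in knockouts (exact permutation p = 0.0333). As 0.0167 is the smallest p possible, a lone change could not pass over 20, so this does not show that genotype had no part.

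Between genotypes 1 codon passed the test at position 1, in females. TCC stood at 0.436, 0.436 and 0.492 in the female wild types against 0.584, 0.556 and 0.560 in the female knockouts. Every female knockout was above every female wild type. TCC was picked by its p, which favours groups that stand apart, so this adds no support. How many of all 61 codons were apart between female genotypes was not counted. Males overlapped, at 0.567 and 0.527 in the male wild types against 0.522 and 0.594 in the male knockouts. The female difference was 0.32 ± 0.071 on the log2 scale (limma, ± SE, adjusted p = 0.0351), which makes 1 of 10 codons called where 6 of 61 were (9.84%). In females 5 of the 10 codons and 25 of all 61 had an unadjusted limma p under 0.05. The male difference was 0.027 ± 0.087. The difference between the sexes, 0.29 ± 0.11, did not pass (limma adjusted p = 0.697), nor did it for any of the 61 codons (0%, with 1 at an unadjusted p under 0.05).

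TCT missed the threshold in females. It stood at 1.07, 1.09 and 1.34 in the female wild types against 1.49, 1.42 and 1.36 in the female knockouts. The groups did not overlap, though the highest wild type and the lowest knockout were close. The difference was 0.29 ± 0.092 for TCT (limma adjusted p = 0.0785), 0.26 ± 0.091 for TCA (0.0892) and 0.16 ± 0.055 for ACT (0.0892). ACG differed the other way, by -0.12 ± 0.055 (limma adjusted p = 0.123). AGC overlapped between genotypes, at 0.391, 0.353 and 0.398 in the female wild types against 0.377, 0.372 and 0.391 in the female knockouts.

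Threonine codons had female differences of both signs, none past the threshold. ACG stood at 1.47, 1.39 and 1.39 in the female wild types against 1.24, 1.31 and 1.34 in the female knockouts. Its knockouts were all below its wild types. ACC stood at 0.556, 0.587 and 0.600 in the female wild types against 0.616, 0.654 and 0.645 in the female knockouts. Here the knockouts were all above the wild types, by 0.14 ± 0.054 (limma adjusted p = 0.101). ACA and the G-ending serine codon overlapped between female genotypes.

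Over both sexes 0 of the 10 codons were called by limma where 4 of 61 were (6.56%), with 2 of the 10 at an unadjusted p under 0.05. In males 0 were called where 2 of 61 were (3.28%), with 0 at an unadjusted p under 0.05. The median log2 difference of the 10 codons was 0.13 in females, 0.072 over both sexes and 0.017 in males, against 0.044, 0.053 and 0.027 over all 61. The mean over serine codons differed by 0.070 over both sexes (exact 2-sided permutation within sex, p = 0.300) and that over threonine codons by 0.046 (exact permutation p = 0.0667). Without male wild type 1 the serine value was 0.13 (exact permutation p = 0.0333), and without male knockout 1 the threonine value was 0.063 (exact permutation p = 0.0167). Both means turned below 0 when each library was centred on its median codon.

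The serine box and pair were also set against each other within each library. The box exceeded the pair, on the log2 scale, by 0.35, 0.42 and 0.53 in the female wild types against 0.72, 0.65 and 0.62 in the female knockouts. In males it did so by 0.60 and 0.72 in the male wild types against 0.69 and 0.88 in the male knockouts. Genotypes were apart in females and overlapped in males. The gap was 0.18 wider in knockouts and did not pass after adjustment (exact permutation p = 0.0333, adjusted p = 0.20 over 6 gaps). No synonymous pair passed for a change with genotype after adjustment either (lowest exact permutation adjusted p = 0.10). As 0.0167 is the smallest p possible, a change of a single gap or pair alone could not pass.

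The female call depended on the processing and on single animals. Centring each library on its median codon gave 0.22 (limma adjusted p = 0.0686), and a replicate block left the difference as it was at an adjusted p of 0.181 (limma). It was also lost without female wild type 1 or 2 or any 1 female knockout. Leaving out female wild type 3, male wild type 1 or male wild type 2 gave 4 called codons, TCC with TCT and with TCA and ACT. Over both sexes 2 codons were called without female wild type 3, 3 without male wild type 1 and 1 without male knockout 1. Ttr took 0.0531, 0.113 and 2.46% of footprints in female wild types 1 to 3 and 0.915% to 5.89% elsewhere, and CA3, CA1 and dentate gyrus markers were apart between female genotypes. The part of these markers, or of choroid plexus, striatal or thalamic ones, in the differences was not tested.

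**Figure D3:**
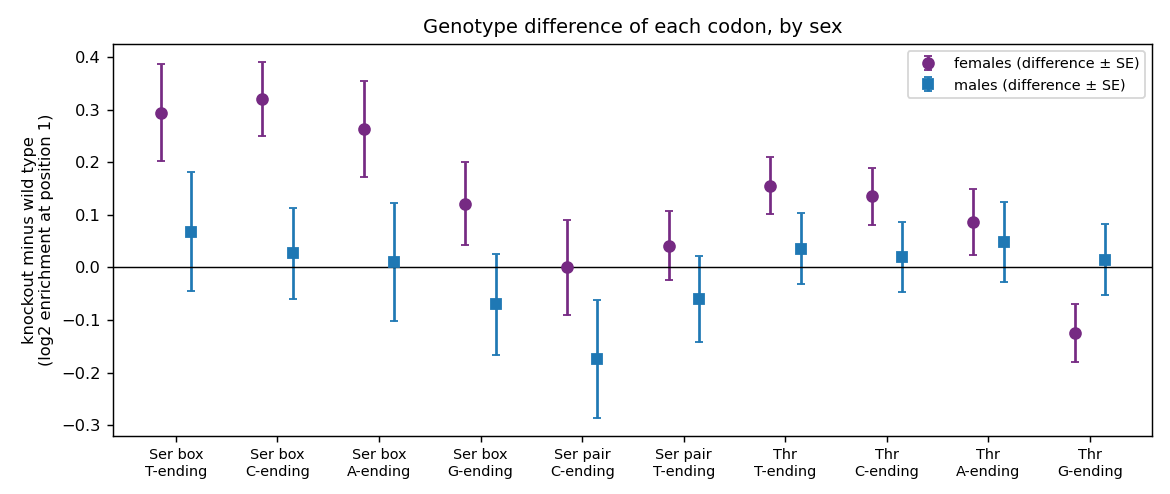
Knockout minus wild type in log2 enrichment at position 1, by codon and sex (difference ± SE from limma). Female points lie above the male points at every codon but the G-ending threonine codon. Male differences run from -0.17 (C-ending codon of the pair) to 0.068 (T-ending codon of the box).

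From position -10 to 10, 1 of 210 codon and position combinations was called by limma over both sexes, where 3 of 1281 were in all (0.234%). It was AGT at position -4, at 0.679, 0.687 and 0.642 in the female wild types against 0.940, 0.848 and 0.854 in the female knockouts. Males stood at 0.896 and 0.779 in the male wild types against 0.891 and 0.930 in the male knockouts. Genotypes were apart in females and overlapped in males. The difference was 0.26 ± 0.047 (limma adjusted p = 0.0161), and it was lost with the replicate block and without female wild type 1, female knockout 1 or male knockout 2. The count became 32 without male wild type 1, 12 without male knockout 1, 3 without female knockout 3 and 2 without male wild type 2.

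In females 20 of the 210 were called, where 126 of all 1281 were (9.84%). Of the 20, 7 were higher in the knockout, where 46 of all 126 called were higher, and AGC gave 8, of which 7 were lower. At position -3, for example, AGC stood at 0.817, 0.826 and 0.808 in the female wild types against 0.638, 0.679 and 0.738 in the female knockouts. The groups did not overlap, and the difference was -0.26 ± 0.062 (limma adjusted p = 0.0314). Adjusted within its position alone, AGC did not pass at -3 or at -1 (limma adjusted p = 0.0617 and 0.0605). Males gave 0 calls, as did all combinations (0%), with 6 of 210 and 29 of 1281 at an unadjusted p under 0.05. For the share of occupancy on each listed codon, limma called none of the 10 over both sexes, where 0% of all 61 were, with 1 of the 10 at an unadjusted p under 0.05. It called none of the 10 in females either, where 1.64% of all 61 were, with 4 of the 10 at an unadjusted p under 0.05. TCG had the lowest p of the 10 in both, at -0.23 ± 0.062 in females (limma adjusted p = 0.0699) and -0.15 ± 0.049 over both sexes (limma adjusted p = 0.0899). Over both sexes it was called with AGT when male wild type 1 was left out.

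Single sites were tested where the mean reached 10 footprints, 24839 sites in all and 2611 of serine or threonine, on 975 mRNAs. Over both sexes 47 of the 2611 were called by edgeR's quasi-likelihood test (Benjamini-Hochberg), where 2.43% of all sites were. Of these, 32 were higher in the knockout (1.46% of all sites) and 15 lower (0.974%). Serine sites gave 22 higher and 7 lower of 1457, a share of 1.99%. Threonine sites gave 10 and 8 of 1154, 1.56%. Both shares were below that of all sites. The median log2 difference was 0.063, against 0.035 over all sites, and 0.19 at TCT sites, where 11 were higher and 2 lower of 477.

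In females 285 (10.9%) were called, where 11.1% of all sites were. Of the 285, 184 were higher and the others lower, where 6.11% of all sites were called higher and 4.96% lower. In males and for the difference between the sexes edgeR called none (0%), with 4.40% and 9.15% at an unadjusted p under 0.05. With the replicate block 13 were called over both sexes. The counts moved with single animals. Over both sexes none was called without female wild type 2, female knockout 1, female knockout 2 or male knockout 2, 7 without female wild type 1, 20 without female wild type 3 and 168 without male wild type 1. In females the count was 2 and 46 without knockouts 1 and 2, and 77, 11 and 116 without wild types 1, 2 and 3. Limma on log2 occupancy called 0 over both sexes, and gave the 8 sites printed above adjusted p values of 0.0923 to 0.102.

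The codon before the site was then tallied. Of the 32 higher sites 11 followed a tyrosine codon and 4 an asparagine codon, and of the 15 lower sites 4 followed an aspartate codon. After tyrosine that is 11.2% of 98 serine and threonine sites, where 8.25% of 897 sites of any codon were called. After asparagine it is 3.85% of 104, where 4.63% of 1296 were. After aspartate it is 1.63% of 245, where 3.13% of 3040 were, 10 of them higher and 85 lower. The serine and threonine shares were thus below those of all codons after asparagine and aspartate. Among serine and threonine sites none after tyrosine or asparagine was called lower, and none after aspartate higher. Sites after a codon of a queuosine tRNA were called in 4.00% of 475 cases, and other serine and threonine sites in 1.31% of 2136. Over all codons these shares were 4.45% and 1.86%. The split was chosen after the site results were seen, and it uses the footprints that also give the enrichment of queuosine codons at position 1, so it is not independent of that enrichment.

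Per animal, the mean log2 occupancy at serine and threonine sites after each kind of codon was taken relative to the 2135 sites after other codons, leaving out 1 site on an mRNA with no matched coding sequence. After tyrosine codons (98 sites) it was -0.18, -0.073 and -0.0065 in the female wild types against 0.43, 0.49 and 0.36 in the female knockouts. Males gave -0.043 and -0.25 in the male wild types against 0.087 and 0.38 in the male knockouts. Each of the 5 knockouts was above the wild types of its sex, the groups differing by 0.45 or 1.36-fold (exact 2-sided permutation within sex, p = 0.0167, the smallest possible, adjusted p = 0.0286 over 12 comparisons, of which 9 passed, 75%). The 12 are tyrosine, asparagine, histidine and aspartate and then each of their codons singly, so the same sites enter again.

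After asparagine codons (104 sites) the values were 0.49, 0.54 and 0.43 in the female wild types against 1.01, 1.10 and 0.91 in the female knockouts. Males gave 0.57 and 0.37 in the male wild types against 0.77 and 0.91 in the male knockouts. The 5 knockouts were again higher, by 0.44 (exact permutation p = 0.0167, adjusted p = 0.0286). After aspartate codons (245 sites) they were 0.38, 0.46 and 0.32 in the female wild types against 0.11, 0.11 and 0.13 in the female knockouts. Males gave 0.29 and 0.30 in the male wild types against 0.086 and 0.078 in the male knockouts. Here all 5 knockouts were lower, with a difference of -0.24 (exact permutation p = 0.0167, adjusted p = 0.0286).

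After histidine codons (28 sites) the difference of 0.30 did not pass (exact permutation p = 0.10, adjusted p = 0.109), and it was 0.45 without male wild type 1 (exact permutation p = 0.0333). By single codon the largest differences were 0.52 after AAC and 0.49 after TAC. At sites of all other codons 11 of 12 comparisons passed (91.7%), with 0.40 after tyrosine, 0.30 after asparagine and -0.18 after aspartate. The same signs were thus found outside serine and threonine. Serine and threonine sites exceeded the others by 0.19 after CAC (exact permutation p = 0.0667) and, among the 4 amino acids, most after asparagine, by 0.14 (exact permutation p = 0.0167). No such difference passed after adjustment over the 12 (lowest adjusted p = 0.10, exact permutation). As 0.0167 is the smallest p possible, a lone difference could not pass over 12. The test therefore does not show that serine and threonine sites were like the others. A difference between the sexes did not pass in any of the 12 (exact permutation, lowest p = 0.267). That test permutes genotype within sex, so it cannot decide the question where both sexes differ the same way between genotypes.

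**Figure D4:**
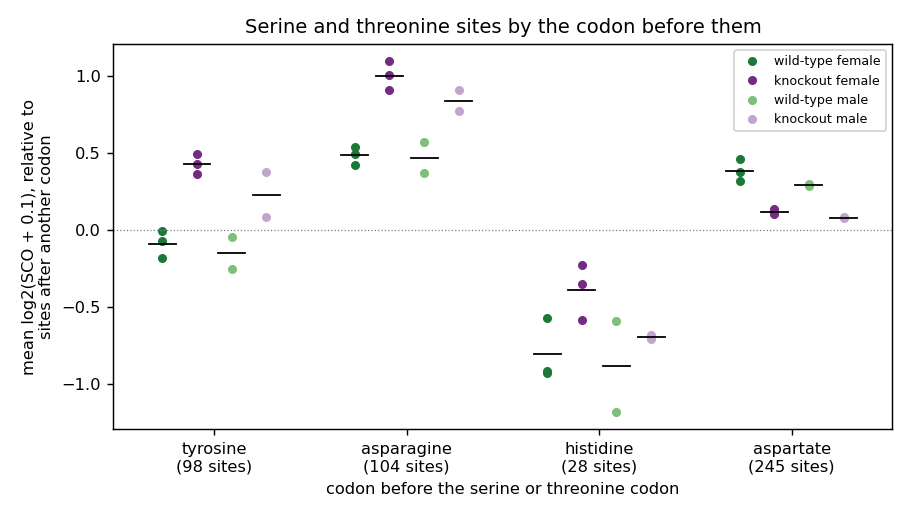
Mean log2(SCO + 0.1) at serine and threonine sites after tyrosine, asparagine, histidine or aspartate codons, minus that after other codons, where SCO is a site's occupancy, with 1 point per library and a bar at each group mean. Knockouts lie above the wild types of their sex after tyrosine and asparagine codons and below them after aspartate codons.

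The 8 sites printed above are taken in turn, with occupancy as a multiple of the mRNA mean. They were picked by p, which favours groups that stand apart, so the lack of overlap below adds no support. Cpe encodes carboxypeptidase E, which trims prohormones. Its TCT site (chr8:64609163-64609165, minus strand, coding exon 5 of 9) stood at 12.0, 8.45 and 12.0 in the female wild types against 33.6, 29.9 and 24.5 in the female knockouts. Males gave 10.6 and 13.1 in the male wild types against 16.1 and 28.8 in the male knockouts. All 5 knockouts were higher, by 1.17 ± 0.19 on the log2 scale (edgeR, ± SE, adjusted p = 0.0180).

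Enc1 encodes a kelch protein of the nervous system. The TCT site (chr13:97246703-97246705, plus strand, in its only coding exon) stood at 5.33, 7.28 and 8.42 in the female wild types against 11.5, 12.2 and 10.6 in the female knockouts. Males gave 5.24 and 4.83 in the male wild types against 11.3 and 16.0 in the male knockouts. Again the knockouts were all higher, by 1.07 ± 0.19 (edgeR adjusted p = 0.0180).

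Lrp1 encodes an endocytic receptor, and its ACA site (chr10:127554593-127554595, minus strand, coding exon 57 of 89) is the shallowest of the 8, with a mean of 12.1 footprints. It stood at 2.05, 1.74 and 1.53 in the female wild types against 8.52, 10.0 and 7.30 in the female knockouts. Males gave 3.90 and 3.34 in the male wild types against 6.75 and 7.27 in the male knockouts. No knockout overlapped the wild types of its sex, and the difference was 1.58 ± 0.32 (edgeR adjusted p = 0.0251).

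Stt3b encodes a catalytic subunit of oligosaccharyltransferase. At its TCA site (chr9:115254910-115254912, minus strand, coding exon 9 of 16), after an alanine codon, occupancy was 16.0, 13.0 and 9.16 in the female wild types against 46.9, 43.6 and 31.4 in the female knockouts. Males gave 27.9 and 21.8 in the male wild types against 35.6 and 37.2 in the male knockouts. All 5 knockouts were higher, by 1.08 ± 0.22 (edgeR adjusted p = 0.0251).

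Tmem59l encodes a membrane protein. At its TCC site (chr8:70484603-70484605, minus strand, coding exon 7 of 8), after a leucine codon, occupancy was 7.29, 7.30 and 5.73 in the female wild types against 24.7, 24.6 and 18.3 in the female knockouts. Males overlapped, at 16.3 and 14.7 in the male wild types against 15.7 and 20.1 in the male knockouts. The difference was 0.95 ± 0.18 over both sexes (edgeR adjusted p = 0.0186), 1.71 ± 0.23 in females and 0.18 ± 0.27 in males.

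Eef1a2 encodes the form of elongation factor 1A found in neurons and muscle. Its AGC site (chr2:181149718-181149720, minus strand, coding exon 5 of 7) stood at 4.56, 6.49 and 7.45 in the female wild types against 1.88, 2.23 and 2.03 in the female knockouts. Males gave 2.37 and 3.47 in the male wild types against 1.57 and 1.97 in the male knockouts. Here the knockouts were all lower, with a difference of -1.13 ± 0.21 (edgeR adjusted p = 0.0186).

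Dpysl2 encodes a collapsin response mediator protein. Its TCT site (chr14:66813192-66813194, minus strand, coding exon 11 of 14), after a glycine codon, stood at 7.38, 7.12 and 6.99 in the female wild types against 1.51, 1.61 and 2.51 in the female knockouts. Males gave 3.38 and 4.21 in the male wild types against 3.16 and 3.29 in the male knockouts. The male groups were close but did not overlap, and the difference was -1.08 ± 0.20 over both sexes (edgeR adjusted p = 0.0180), and of -0.24 ± 0.30 in males alone.

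Eif3g encodes a subunit of initiation factor eIF3. Its ACT site (chr9:20894923-20894925, minus strand, coding exon 9 of 11) stood at 15.3, 26.3 and 25.8 in the female wild types against 3.43, 6.26 and 4.31 in the female knockouts. Males gave 7.39 and 8.38 in the male wild types against 6.36 and 5.37 in the male knockouts. All 5 knockouts were lower, with a difference of -1.33 ± 0.28 (edgeR adjusted p = 0.0271), and of -0.40 ± 0.42 in males alone. Each of the 8 sites lost its call in 4 or 5 of the 10 fits that left out 1 library, and the difference between the sexes passed at none of them (lowest edgeR adjusted p = 0.406).

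**Figure D5:**
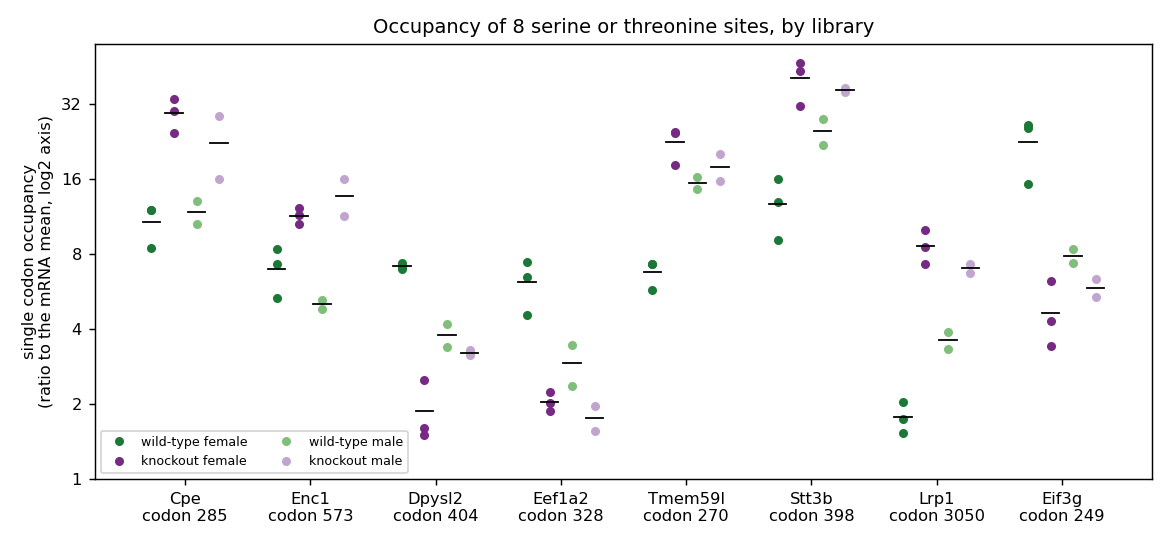
Occupancy (multiple of the mRNA mean, log2 axis) at the 8 sites of lowest p over both sexes, with 1 point per library and a bar at each group mean. Female genotypes are apart at every site, and males overlap at Tmem59l. The sites were picked by p, which favours groups that stand apart.

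Other serine and threonine sites held a large share of their mRNA's listed footprints in both genotypes. The 8 of highest mean occupancy were taken from 388 sites with a mean of at least 50 footprints, at most 1 per mRNA. Maged1, Serpine2 and Arpc1a are printed as before, as examples of such sites after codons that no queuosine tRNA reads.
Maged1 codon 549: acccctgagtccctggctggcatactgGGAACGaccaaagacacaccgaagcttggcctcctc
Serpine2 codon 378: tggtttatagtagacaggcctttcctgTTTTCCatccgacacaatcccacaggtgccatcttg
Arpc1a codon 239: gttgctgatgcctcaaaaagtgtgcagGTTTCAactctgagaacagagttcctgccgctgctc
Glycine, phenylalanine and valine codons precede these sites.

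Maged1, of the MAGE family, had the highest occupancy, 531 at the lowest, 579 at the median and 617 at the highest of 10 libraries. Its ACG codon is split between coding exons 6 and 7 (chrX:94537755-94537975, minus strand, intron included) and held 87.1% of the footprints listed on that mRNA. Serpine2, a secreted protease inhibitor, had 197, 229 and 270.1 at a TCC codon (chr1:79796845-79796847, minus strand). Arpc1a, of the Arp2/3 actin complex, had 202, 219.5 and 246 at a TCA codon (chr5:145104446-145104448, plus strand). These values varied little between libraries. How footprints matching several mRNAs were assigned is not stated, and thin coverage elsewhere on an mRNA raises the ratio.

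Pkm, the gene of muscle-type pyruvate kinase, stood at 149, 139 and 128 in the female wild types against 259, 303 and 244 in the female knockouts at a TCT codon (chr9:59675188-59675190, plus strand, coding exon 8 of 10). Males overlapped, at 212 and 97.5 in the male wild types against 186 and 167 in the male knockouts. The female difference was 0.95 ± 0.26 (edgeR adjusted p = 0.0290). The others of the 8 were Bin1, Tspan7, Sel1l3 and Sccpdh, with medians of 337, 212, 167 and 159.8. Over both sexes none of the 8 was called by edgeR (adjusted p from 0.136 to 0.939).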

How the data were processed

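The 20 samples are 1 footprint and 1 input library of each of 10 animals. The enrichment tables hold, per the file headers, a ratio per codon and position, which the authors call unbiased by a correction they do not describe in these files. The occupancy tables give, per the file headers, the footprint count of each codon and the ratio of that count to the mean of its mRNA (SCO). They also hold a deposited percent of coding sequence covered, which was not used. Gene counts were deposited by the authors as whole numbers. The submitters' processing notes name, with no roles, SAMtools 0.1.19, Bowtie 1.0.0 and 1.2.2, Trimmomatic 0.39 and cutadapt 1.8.1. The build is not stated there. In every library at least 99.7% of listed codons matched GENCODE vM21.

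Log2 enrichment of 61 codons was tested with limma 3.58.1 on 4 group means. Site counts were tested with edgeR 4.0.16 with the mRNA's listed footprints as offset, an unlisted site counting as 0. Single values were tested by exact permutation of genotype within sex, whose smallest p is 0.0167 over both sexes, 0.10 in females and 0.333 in males. P values were adjusted over whole tables by Benjamini-Hochberg at 0.05. The pseudocount on SCO was 0.1. All 10 codons are named, with the 8 sites of lowest p and the 8 of highest SCO. Members and lists were chosen with earlier results of these data known. Alternatives were DESeq2 1.42.0, limma on SCO, other filters and scalings, a replicate block and leaving out each animal. On simulated data log2 differences of 0.2 and 0.4 were found for 48.8% and 80.7% of changed codons (61 codons). Differences of 1 and 2 were found for 20.5% and 93.0% of changed sites (24839 sites). The simulated codons varied independently of each other, which real libraries need not do. Gene counts summed to 5357812 to 15517982 per footprint library and 9000662 to 13637370 per input library. R 4.3.3, Python 3.11.15 and SciPy 1.17.1 were used.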

Additional observations from a re-analysis of the deposited data

How the results depend on the processing

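Synonymous codons differed under each alternative: 20 of 21 pairs differed at position 0, 21 in the recomputed enrichment and 20 to 21 without any 1 library. Their order was another at position 0, where 6 of the 21 pairs had the opposite sign from position 1, 4 of them called at both, as for ACC minus ACG at -1.14 and 0.28 (log2, positions 1 and 0). Centring each library on its median codon left 0 codons called in females and turned the serine and threonine means to -0.00457 and -0.0284, and linear ratios gave 2 in females. Leaving out 1 library moved the serine mean over 0.0145 to 0.126, the threonine mean over 0.0292 to 0.0635 and the serine pair over -0.124 to 0.0276, above 0 only without male wild type 1. It moved the codons called over 0 to 3 for both sexes, 0 to 4 in females, 0 to 2 for the sex difference and 0 to 2 in the occupancy share. Codon and position calls ranged over 0 to 32, and adjusting within each position gave 4. Site calls ranged over 0 to 168 for both sexes, 2 to 404 in females and 0 to 3 in males. Limma gave 0 and 84 sites for both sexes and females, and DESeq2 59 and 163. The cause was not tested.

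In males the replicate number goes with age, the same in both genotypes, while the labels tie it to no litter or day. Deviations of same-numbered wild types and knockouts correlated over 61 codons at -0.552, 0.0862 and -0.579 in females, which gives no pairing, and -0.375 in males, a single value for 2 animals per genotype that does not settle it. With the replicate block 0 codons were called in females, 0 codon and position combinations over both sexes, and 13 sites over both sexes and 199 in females. With the male numbers crossed, chosen after seeing the data, the block called 0 codons in females, 1 in the occupancy share, and 48 sites over both sexes and 216 in females. The preceding-codon differences for tyrosine, asparagine and aspartate had an exact permutation p of 0.0625 within the block, the smallest it allows. Few animals and shallow sites limit what could be detected.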
